A study of Mus musculus with 9 samples.

Results

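The proteasome genes of irradiated, senescent mouse embryonic fibroblasts were compared between cells that carried a hairpin RNA against Rela and cells that carried a scrambled one. A gene was taken when its symbol began with Psma, Psmb, Psmc, Psmd or Psme followed by a number. This rule took 45 of the 24062 genes in the deposited table of raw counts, and 44 of the 45 passed the filter on low counts that left 15369 genes for testing. Psmb11, the catalytic subunit of cortical cells of the thymus, did not pass and held at most 8 counts in any sample. The rule also takes Psmc3ip, whose product is a meiotic recombination factor and not a subunit, and Psme2b, a near copy of Psme2. Every group was C57BL/6 embryonic fibroblasts made senescent with gamma rays and infected with lentivirus at day 10 after irradiation. The groups were shRela-1, shRela-2 and the scrambled control shScr, with 3 samples each, 9 in all. shRela-1 and shRela-2 carry different hairpins, both aimed at Rela, which encodes the NF-kB subunit p65. The sequences of the hairpins were not used here. The question the groups address is which transcripts depend on Rela in senescent cells. No group without irradiation or without a hairpin was analysed here.

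The proteasome is the protease that degrades ubiquitin-tagged proteins. Its 20S core is a barrel of alpha rings, which form the gate, around beta rings, which hold the active sites, and the 19S cap unfolds and feeds in the substrate. In cells that receive interferon the constitutive catalytic subunits Psmb6, Psmb7 and Psmb5 are replaced by Psmb9, Psmb10 and Psmb8, which form the immunoproteasome and change the peptides offered on MHC class I. NF-kB needs the proteasome for the destruction of its inhibitor, and is itself one of the factors known to act on immunoproteasome genes. Transcription of the constitutive subunits is known to be raised together by NRF1, the product of Nfe2l1, when proteasome activity drops.

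Total counts per sample ran from 49774667 to 67963506. Rela stood at 14.1, 13.6 and 13.2 CPM with shRela-1, 14.8, 13.5 and 13.3 CPM with shRela-2, and 85.5, 83.2 and 86.8 CPM with shScr (CPM, the count relative to the scaled library total), with log2 fold changes of -2.64 ± 0.0503 (SE, adjusted p = 8.73e-10) for shRela-1 and -2.62 ± 0.0505 (SE, adjusted p = 1.18e-09) for shRela-2 by edgeR's quasi-likelihood test. Summed markers of fibroblasts, led by Col1a1, lay between 38788 and 39001 CPM with shRela-1, 34198 and 34833 CPM with shRela-2, and 34286 and 36893 CPM with shScr. Of 10 markers of macrophages and blood cells, which can express the immunoproteasome without interferon, 9 were in the table and none was at 0. Their sum was highest in replicate 2 of each group, at 543, 552 and 604 CPM with shRela-1, shRela-2 and shScr, and 359 to 464 CPM in the other 6 samples. All of 5 endothelial markers (sums 4.01 to 5.79 CPM) and all of 5 epithelial ones had counts in some sample. The epithelial sums were 9.30 to 18.6 CPM with shRela-1, 4.83 to 8.12 CPM with shRela-2 and 4.78 to 9.67 CPM with shScr. In bulk RNA fewer cells of a type and less RNA per cell cannot be told apart. Whether the samples of a group were separate cultures is not stated, so a p-value here rests on a spread between samples that may be purely technical. A dataset tag stands in the shScr titles and in none of the shRela titles, and a batch that went with it cannot be told apart from the group.

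The hairpins gave different patterns over the proteasome genes, although Rela stood between 13.2 and 14.8 CPM with both. A gene is said to have risen or fallen where edgeR's quasi-likelihood test gave a Benjamini-Hochberg adjusted p under 0.05 over all 15369 genes. With shRela-2, 17 of the 44 rose and 7 fell, which is 54.5% called, against 30.9% of all genes (15.4% rose and 15.4% fell). With shRela-1, 1 of the 44 rose and 8 fell, which is 20.5% called, against 24.7% of all genes (12.3% rose and 12.4% fell). Between the hairpins, 21 were higher and 7 lower with shRela-2 than with shRela-1, which is 63.6% called, against 39.9% of all genes (20.0% and 19.9%). For the mean of both hairpins against shScr, 9 rose and 9 fell, which is 40.9% called, against 22.8% (10.7% and 12.2%). A call in this mean need not hold for each hairpin. Psmd7 is among the 9 that fell, with log2 changes of -0.47 with shRela-1 and 0.20 with shRela-2. Tested singly, 1 member rose and 2 fell with both hairpins. Calls shared by both hairpins, or opposite between them, were not counted over all genes. Whether the members had more or fewer of them than other genes is therefore not known.

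Most proteasome genes are abundant, and abundant genes were called more often. Of the 34 members with a mean of at least 70 CPM, a bound set after the levels were seen, 67.6% were called with shRela-2 and 23.5% with shRela-1, against 51.4% and 40.7% of the 2835 genes above the same bound. The shares were 73.5% of these members and 58.7% of genes between the hairpins, and 50% and 41.0% for the mean of both. The median log2 fold change of the 44 was 0.05 with shRela-2, -0.07 with shRela-1 and 0.13 between the hairpins, where the medians of all genes were within 0.01 of 0. The CPM values of the groups compared did not overlap for 70.5% of members with shRela-2, 47.7% with shRela-1, 72.7% between the hairpins and 22.7% for the mean. Over all genes these shares were 44.1%, 39.6%, 50.1% and 13.2%. Same-numbered samples deviated together, and the replicate number as a block raised the number of calls over all genes as well as over the members. With the block 5 members rose and 14 fell with shRela-1, which is 43.2% called, against 39.3% of all genes (20.4% rose and 18.9% fell). With shRela-2 61.4% of members and 44.4% of all genes were called with the block.

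Summed over all 45 genes, the level was 4382 ± 53.0 CPM with shRela-1, 4698 ± 87.9 CPM with shRela-2 and 4523 ± 96.5 CPM with shScr (SD, n = 3 each). Psme3 rose with both hairpins, and Psmb4 and Psmb6 fell with both. Psmd7 and Psmd14 fell with shRela-1 and rose with shRela-2. The comparisons with shScr share the 3 control samples, so their values are given side by side and no likeness between them is measured.

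**Figure D1:**
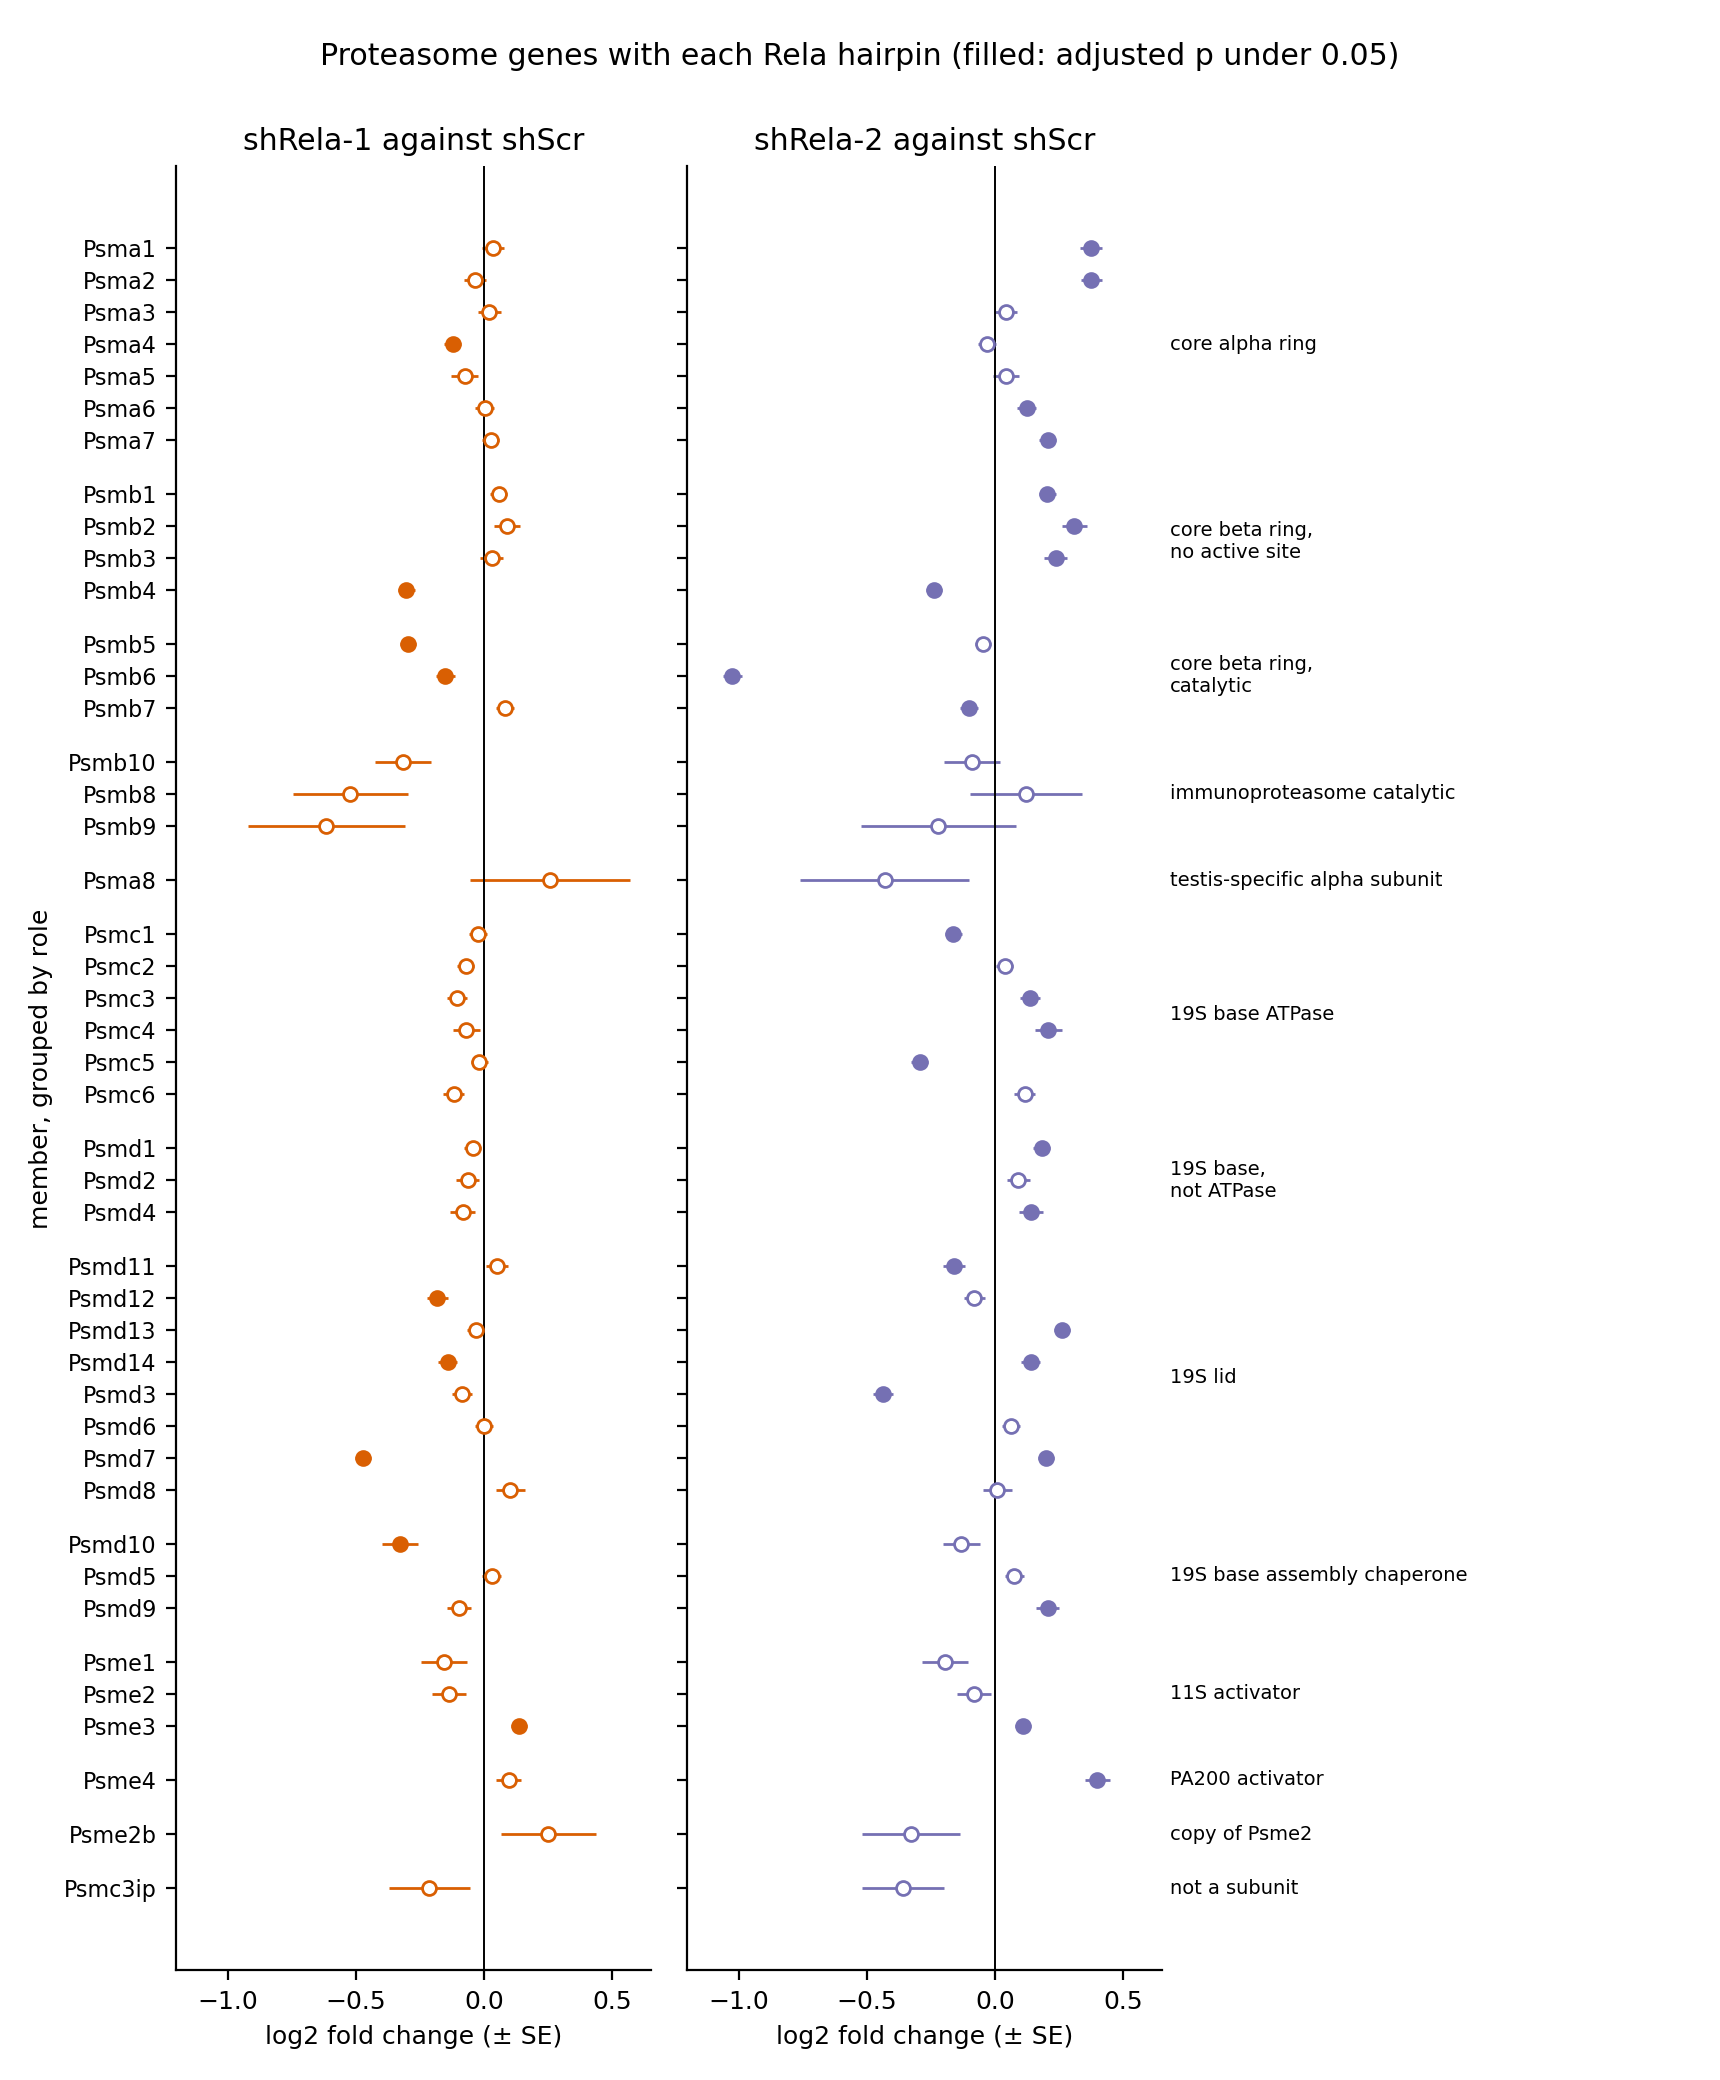
Log2 fold change of the 44 tested proteasome genes with shRela-1 (left) and shRela-2 (right) against shScr, grouped by role. Points are estimates of the edgeR fit, bars are the standard error, and filled points passed the adjusted p of 0.05; Psmb6 lies at -1.02 with shRela-2 and Psmd7 at -0.47 with shRela-1.

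Psmb6, the constitutive subunit with caspase-like activity, had the largest change of the 44 genes in any comparison with shScr. It lies on chromosome 11, bases 70525367 to 70527858, plus strand of GRCm38, the assembly also called mm10. Its level was 103, 105 and 98.4 CPM with shRela-1, 55.9, 55.1 and 56.1 CPM with shRela-2, and 117, 112 and 111 CPM with shScr. The 3 samples with shRela-2 lay far below all others, and those with shRela-1 lay just below the controls without overlap. The log2 fold change was -1.02 ± 0.0372 (SE, adjusted p = 8.76e-08) with shRela-2, which left 49.2% of the shScr mean, and -0.15 ± 0.0365 (SE, adjusted p = 0.0128) with shRela-1. The smaller fall did not pass without shRela-1 replicate 3 (adjusted p = 0.0554). Between the hairpins the difference was -0.87 ± 0.0371 (SE, adjusted p = 5.86e-08). Per kilobase of its principal transcript, Psmb6 stood at 128 ± 4.20 CPM with shRela-1, 69.8 ± 0.653 CPM with shRela-2 and 142 ± 4.11 CPM with shScr (SD, n = 3 each). That placed it 2nd of the 14 constitutive 20S genes with shRela-1 and with shScr, and 12th with shRela-2.

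**Figure D2:**
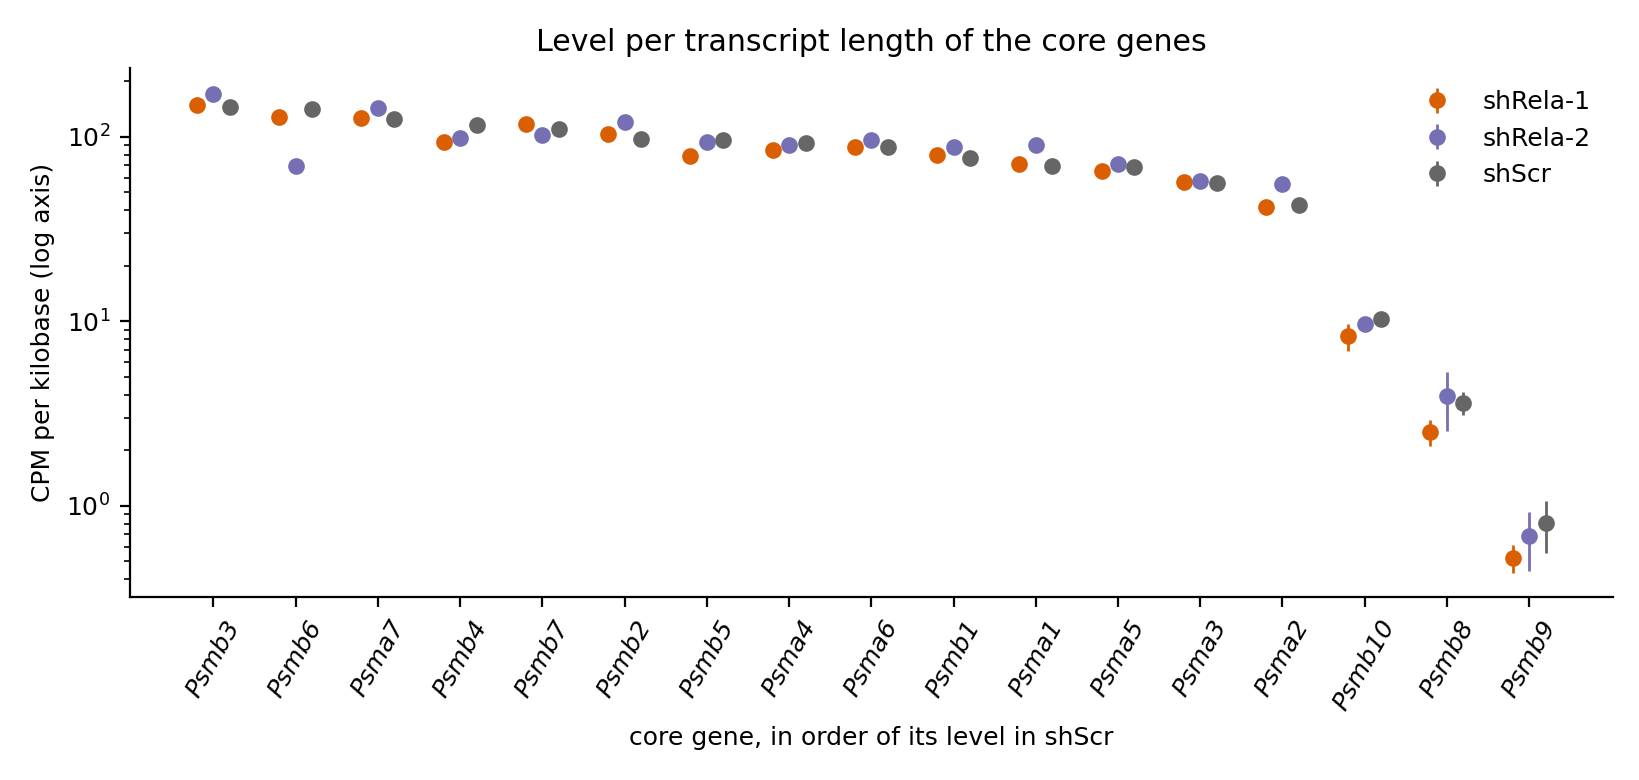
Mean CPM per kilobase of the principal transcript (log axis, bars SD, n = 3) of the 14 constitutive 20S genes and the 3 immunoproteasome subunits in shRela-1, shRela-2 and shScr, ordered by the level in shScr. Psmb6 moves to 12th place with shRela-2, and Psmb10, Psmb8 and Psmb9 stand lowest in all groups.

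The other constitutive catalytic subunits changed less than Psmb6 with shRela-2. Psmb5, which carries the chymotrypsin-like activity, was at 70.9, 72.1 and 68.8 CPM with shRela-1, 83.9, 83.4 and 84.9 CPM with shRela-2, and 88.0, 85.8 and 86.5 CPM with shScr. Its shRela-1 samples were below all others, and those with shRela-2 were just below the controls. It fell with shRela-1 by 0.30 ± 0.0311 (SE, adjusted p = 7.49e-05) on the log2 scale, and its change with shRela-2 was -0.05 ± 0.031 (SE, adjusted p = 0.303). The difference between the hairpins was 0.25 ± 0.0311 (SE, adjusted p = 9.75e-05). Psmb5 shares 54.1% of its 50-base stretches with other genes, mostly Gm3375, so its counts are uncertain. Psmb7, which carries the trypsin-like activity, was at 135, 137 and 134 CPM with shRela-1, 116, 122 and 119 CPM with shRela-2, and 129, 129 and 125 CPM with shScr. The groups did not overlap, with shRela-2 lowest and shRela-1 highest. Its fall with shRela-2, -0.10 ± 0.0346 (SE, adjusted p = 0.0473), was lost without any 1 of the 9 samples (adjusted p from 0.0513 to 0.149), with upper quartile scaling, without the filter and with only the groups compared in the fit (adjusted p = 0.058, 0.0768 and 0.0634). Its change with shRela-1 was 0.08 ± 0.0346 (SE, adjusted p = 0.115), which passed with the replicate block (adjusted p = 0.038). Between the hairpins its log2 fold change was -0.18 ± 0.0346 (SE, adjusted p = 0.00166), a call kept in every fit that left out a sample. An exon of Psmb7 overlaps Nek6 on the opposite strand, and the library kit does not mark strand.

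Psmb6 was lowest with shRela-2 and Psmb5 with shRela-1, and Psmb8 and Psmb9 are the classical interferon-responsive partners. For these reasons the promoters of the 4 catalytic genes are shown. They are RefSeq windows of GRCm38.p6 with 250 bases before and 50 after the annotated start, 5′ to 3′ on the gene's strand. Capitals mark TGACNNNGC, the core of the antioxidant response element that NRF1 and NRF2 can bind, in Psmb6 and Psmb5, and TTCNNNGAA, the gamma-activated site bound by STAT factors, in Psmb8.
Psmb6 (chr11:70525107-70525406, plus strand): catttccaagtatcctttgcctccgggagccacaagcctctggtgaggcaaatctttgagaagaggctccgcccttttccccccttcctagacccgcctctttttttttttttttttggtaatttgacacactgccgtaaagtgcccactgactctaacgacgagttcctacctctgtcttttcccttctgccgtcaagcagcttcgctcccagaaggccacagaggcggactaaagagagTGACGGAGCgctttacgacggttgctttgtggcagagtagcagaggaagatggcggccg
Psmb5 (chr14:54617946-54618245, minus strand): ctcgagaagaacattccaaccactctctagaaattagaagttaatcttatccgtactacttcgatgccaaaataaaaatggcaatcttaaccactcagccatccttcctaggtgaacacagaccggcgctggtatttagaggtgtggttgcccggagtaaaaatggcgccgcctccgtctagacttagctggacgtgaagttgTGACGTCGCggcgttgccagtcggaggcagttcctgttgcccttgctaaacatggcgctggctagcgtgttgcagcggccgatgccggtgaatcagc
Psmb8 (chr17:34197945-34198244, plus strand): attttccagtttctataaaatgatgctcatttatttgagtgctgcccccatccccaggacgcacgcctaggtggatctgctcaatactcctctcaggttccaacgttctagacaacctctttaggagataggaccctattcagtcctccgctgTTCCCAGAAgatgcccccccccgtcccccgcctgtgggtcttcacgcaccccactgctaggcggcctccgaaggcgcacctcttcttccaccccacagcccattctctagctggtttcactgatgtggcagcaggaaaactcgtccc
Psmb9 (chr17:34187281-34187580, minus strand): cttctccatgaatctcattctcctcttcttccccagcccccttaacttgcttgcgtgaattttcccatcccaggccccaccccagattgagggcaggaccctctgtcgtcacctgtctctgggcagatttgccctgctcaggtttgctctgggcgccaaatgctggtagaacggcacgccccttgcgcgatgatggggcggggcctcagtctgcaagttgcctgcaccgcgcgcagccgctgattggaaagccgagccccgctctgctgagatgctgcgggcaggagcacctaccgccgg

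In Psmb6 the TGACNNNGC match began at base -9 and in Psmb5 at base -47 relative to the start. The TTCNNNGAA match of Psmb8 began at base -97, and that pattern is its own reverse complement. Both strands were searched in the 38 members with an entry. TGACNNNGC was in 6 (15.8%; Psmb5, Psmb6, Psmc6, Psmd9, Psmd12 and Psme4), against 14% of 27025 genes with an entry. TTCNNNGAA was in Psmb8 and Psmd2 (5.3% against 9.55%), and GAAA repeated after any 2 bases, part of the interferon response element, was in Psmb3, Psmd4, Psmd9 and Psme1 (10.5% against 3.99%). The NF-kB consensus was in Psmd12 (2.6% against 5.14%). None of these letters was in the window of Psmb9. In GENCODE, Psmb8 begins at base 34197721 and Psmb9 at base 34187764, both outside their RefSeq windows. The bases around those starts were not searched. Of the 6 members with TGACNNNGC, Psme4 and Psmd9 rose with shRela-2, Psmb6 fell, and Psmb5, Psmc6 and Psmd12 were not called by edgeR. With shRela-1, Psmb5, Psmb6 and Psmd12 fell, and Psmc6, Psmd9 and Psme4 were not called. The part of these motifs in the changes was not tested.

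The immunoproteasome subunits were at low levels throughout. Psmb8 and Psmb9 lie within the MHC (chromosome 17, bases 34197721 to 34201454, plus strand, and bases 34181987 to 34187764, minus strand), and Psmb10 lies on chromosome 8, bases 105935735 to 105938444, minus strand. Psmb8, which replaces Psmb5, was at 3.91, 4.79 and 3.52 CPM with shRela-1, 8.86, 5.66 and 4.59 CPM with shRela-2, and 6.74, 5.74 and 5.10 CPM with shScr. All 3 samples with shRela-1 lay below the 3 controls, and the samples with shRela-2 spread over both, with replicate 1 highest of all. Psmb10, which replaces Psmb7, was at 9.26, 12.8 and 10.6 CPM with shRela-1, 13.6, 11.9 and 12.7 CPM with shRela-2, and 12.8, 13.7 and 14.1 CPM with shScr. With shRela-1 it was below or level with the lowest control, and with shRela-2 it overlapped the controls. Psmb9, which replaces Psmb6, was at 0.676, 0.842 and 0.603 CPM with shRela-1, 0.849, 1.29 and 0.641 CPM with shRela-2, and 1.48, 0.993 and 0.811 CPM with shScr, and the groups overlapped. Summed over the 3 genes the level was 15.6 ± 2.41 CPM with shRela-1, 20.0 ± 2.89 CPM with shRela-2 and 20.5 ± 0.499 CPM with shScr (SD, n = 3 each).

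**Figure D3:**
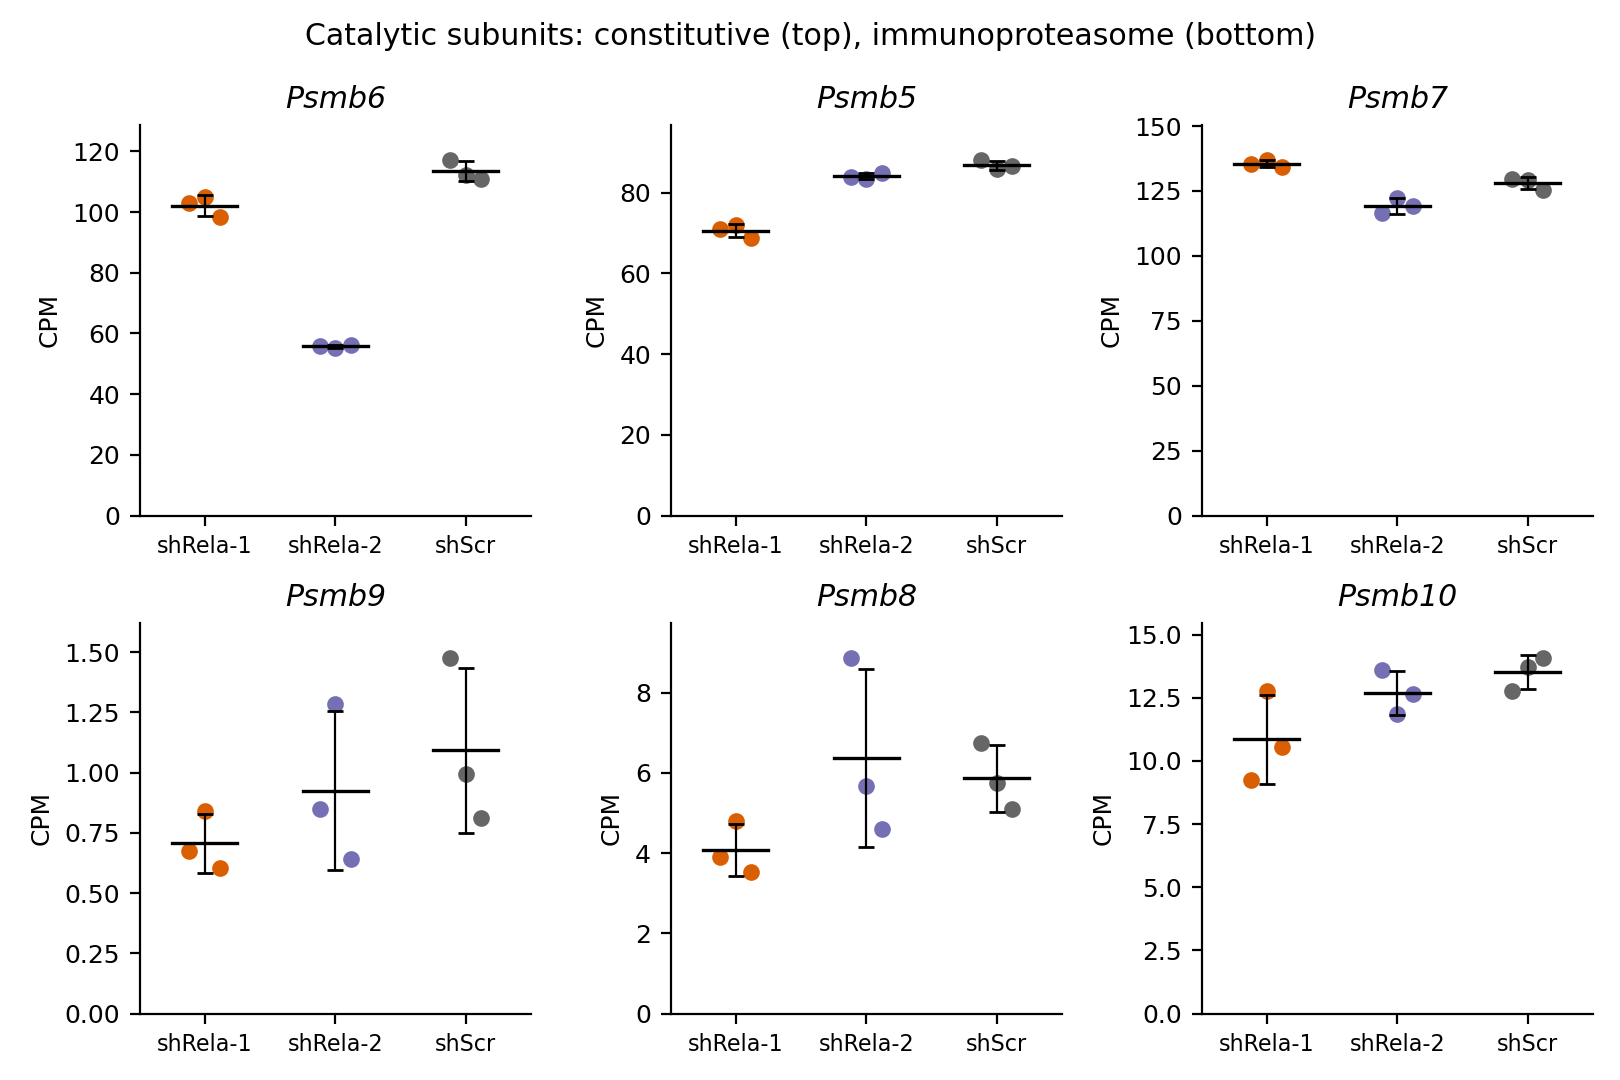
CPM in each sample (points), mean (line) and SD (bars) of the constitutive catalytic subunits Psmb6, Psmb5 and Psmb7 and of the immunoproteasome subunits Psmb9, Psmb8 and Psmb10 that replace them, each axis from 0. Psmb6 with shRela-2 lies between 55.1 and 56.1 CPM, and Psmb8 and Psmb9 spread widely with shRela-2.

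None of the 3 immunoproteasome genes passed the edgeR test against shScr with either hairpin. At an unadjusted p under 0.05, 2 of the 3 were lower with shRela-1 (Psmb8 and Psmb10) and 0 changed with shRela-2, and DESeq2 and limma voom each called 1 with shRela-1 and 0 with shRela-2. The log2 fold changes with shRela-1 were -0.52 ± 0.223 (SE, adjusted p = 0.12) for Psmb8, -0.61 ± 0.307 (SE, adjusted p = 0.183) for Psmb9 and -0.32 ± 0.109 (SE, adjusted p = 0.0592) for Psmb10. With the replicate block, Psmb8 and Psmb10 fell with shRela-1 (adjusted p = 0.00346 and 0.00622), and Psmb9 did not pass (adjusted p = 0.0631). Psmb8 also passed without shRela-2 replicate 1 (adjusted p = 0.033) and with only the groups compared in the fit (0.0385), and Psmb10 passed without shRela-1 replicate 2 (0.00885), with limma voom (0.0429) and with DESeq2 (0.0296). With shRela-2 the changes were 0.12 ± 0.22 (SE, adjusted p = 0.731), -0.22 ± 0.303 (SE, adjusted p = 0.637) and -0.09 ± 0.109 (SE, adjusted p = 0.587) for Psmb8, Psmb9 and Psmb10. The 95% intervals of these 3 changes were -0.37 to 0.61, -0.89 to 0.45 and -0.33 to 0.15, so falls and rises of moderate size are both inside them.

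Between the hairpins, Psmb8 was higher with shRela-2 by 0.64 ± 0.223 (SE, adjusted p = 0.0417), although the samples overlapped. That call was lost without replicate 1 or 3 of shRela-1, replicate 1 or 2 of shRela-2, or replicate 2 or 3 of shScr (adjusted p from 0.0517 to 0.166), with limma voom (0.0644) and with only these groups in the fit (0.0631). Psmb10 differed by 0.22 ± 0.11 (SE, adjusted p = 0.131), and passed with the replicate block (adjusted p = 0.0362) and without shRela-1 replicate 2 (0.015). The sum of macrophage and blood markers was 359 CPM in shRela-2 replicate 1, where Psmb8 was highest, and 552 CPM in shRela-2 replicate 2, where Psmb9 was highest of its group; the part of such cells in these levels was not tested. Exons of Psmb9 overlap 212 bases of Tap1 on the opposite strand, and those of Psmb8 overlap Gm20496. Tap1, a subunit of the peptide transporter, was at 23.7, 32.0 and 28.1 CPM with shRela-1, 37.1, 35.8 and 29.1 CPM with shRela-2, and 28.5, 33.3 and 29.5 CPM with shScr, and its log2 changes were -0.12 ± 0.117 (SE, adjusted p = 0.503) with shRela-1 and 0.16 ± 0.117 (SE, adjusted p = 0.351) with shRela-2.

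The balance of each immunoproteasome subunit with its constitutive partner was taken as a log2 ratio of counts within a sample, to which library scaling does not matter. Over the 6 samples with a Rela hairpin against the 3 controls, the mean log2 ratio differed by -0.05 for Psmb8 to Psmb5, 0.17 for Psmb9 to Psmb6 and -0.20 for Psmb10 to Psmb7. In exact two-sided permutation tests over samples these gave p = 0.81, 0.726 and 0.286, each 0.81 after Benjamini-Hochberg adjustment over the 3 pairs. With permutation only among same-numbered samples, the adjusted p was 0.741 for each pair. The 6 samples hold 2 hairpins whose differences from shScr had opposite signs in each pair, so these tests do not show an unchanged balance. Psmb9 to Psmb6 was -7.24, -6.95 and -7.33 in shRela-1 samples, -6.03, -5.41 and -6.43 in shRela-2 samples, and -6.30, -6.81 and -7.08 in shScr samples. The difference from shScr was -0.44 for shRela-1 and 0.77 for shRela-2. Psmb6, the denominator, is the gene that stood at 49.2% of its control level with shRela-2. Psmb8 to Psmb5 in shRela-1 samples was -0.23 from shScr and in shRela-2 samples 0.12, and Psmb10 to Psmb7 was -0.41 and 0.01 from it. With 3 samples against 3 an exact two-sided test cannot go below p = 0.1, so the differences for single hairpins carry no test.

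Of the 11 genes of alpha and beta ring subunits without an active site, 7 rose and 1 fell with shRela-2, and none rose and 2 fell with shRela-1. Of all 14 constitutive 20S genes, 7 rose and 3 fell with shRela-2, and none rose and 4 fell with shRela-1. The shares of all genes tested were 15.4% risen and 15.4% fallen with shRela-2, and 12.3% and 12.4% with shRela-1. Among genes with a mean of at least 70 CPM, 51.4% were called with shRela-2 and 40.7% with shRela-1. Before adjustment, at p under 0.05, edgeR gave 1 of the 14 (Psmb7) as higher with shRela-1, and DESeq2 and limma voom called 0. Psma2, an alpha ring subunit, was at 122, 121 and 119 CPM with shRela-1, 166, 160.2 and 156 CPM with shRela-2, and 129, 123 and 119 CPM with shScr. Its shRela-2 samples stood above all others, and the other groups overlapped. Its log2 change was 0.37 ± 0.0411 (SE, adjusted p = 8.56e-05) with shRela-2 and -0.04 ± 0.0411 (SE, adjusted p = 0.597) with shRela-1, and 0.41 ± 0.0411 (SE, adjusted p = 2.19e-05) between the hairpins. Psma1, another alpha subunit, was at 86.4, 82.2 and 89.1 CPM with shRela-1, 112, 106 and 108 CPM with shRela-2, and 84.1, 86.4 and 80.7 CPM with shScr, and again only the shRela-2 samples stood above the others. Its changes were 0.37 ± 0.0424 (SE, adjusted p = 0.000108) with shRela-2, 0.04 ± 0.0424 (SE, adjusted p = 0.596) with shRela-1 and 0.34 ± 0.0423 (SE, adjusted p = 0.000108) between the hairpins.

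Psmb2, a beta subunit without an active site, was at 90.1, 88.3 and 87.5 CPM with shRela-1, 107, 103 and 98.8 CPM with shRela-2, and 89.5, 78.7 and 81.6 CPM with shScr. The shRela-2 samples were highest, and those with shRela-1 lay around shScr replicate 1. It rose with shRela-2 by 0.31 ± 0.0502 (SE, adjusted p = 0.00102); with shRela-1 the change was 0.09 ± 0.0502 (SE, adjusted p = 0.231), which passed with the replicate block (adjusted p = 0.0474) and without shScr replicate 1 (0.0474). Between the hairpins the difference was 0.22 ± 0.0501 (SE, adjusted p = 0.00527). Psmb1, of the same ring, was at 140.2, 140.1 and 141 CPM with shRela-1, 159, 152 and 156 CPM with shRela-2, and 136, 136 and 133 CPM with shScr. Its groups did not overlap, with shRela-2 highest and shScr lowest. Its changes were 0.20 ± 0.0337 (SE, adjusted p = 0.00117) with shRela-2, 0.06 ± 0.0337 (SE, adjusted p = 0.257) with shRela-1 and 0.15 ± 0.0337 (SE, adjusted p = 0.00555) between the hairpins. Its rise in the mean of both hairpins, 0.13 ± 0.0293 (SE, adjusted p = 0.00935), did not pass without shScr replicate 3 (adjusted p = 0.0526).

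Psmb4, also a beta subunit without an active site, went the other way. It was at 112, 112 and 110.0 CPM with shRela-1, 115, 116 and 118 CPM with shRela-2, and 138, 136 and 137 CPM with shScr. All 6 samples with a Rela hairpin lay well below the 3 controls. The log2 change was -0.30 ± 0.0318 (SE, adjusted p = 7.66e-05) with shRela-1 and -0.24 ± 0.0318 (SE, adjusted p = 0.000306) with shRela-2, both calls were kept without any 1 sample, and the difference between the hairpins was 0.06 ± 0.0318 (SE, adjusted p = 0.139). Psmb3, Psma6 and Psma7 also rose with shRela-2 by 0.24, 0.12 and 0.21 on the log2 scale (adjusted p = 0.0027, 0.0271 and 0.000939), and Psma4 fell with shRela-1 (-0.12, adjusted p = 0.0232). The call of Psma6 was lost without shRela-2 replicate 2 or 3 or shScr replicate 2 or 3 (adjusted p from 0.0524 to 0.112), and that of Psma4 without shRela-1 replicate 1 or 2 or shScr replicate 2 (0.0583 to 0.0915). Psmb3 shares 55.8% of its 50-base stretches with other genes, Psma4 19.2%, Psma3 22.0% and Psma5 54.5%. Psma3 and Psma5 passed with neither hairpin, and Psma8, the alpha subunit of the testis, stayed between 0.303 and 0.87 CPM.

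**Figure D4:**
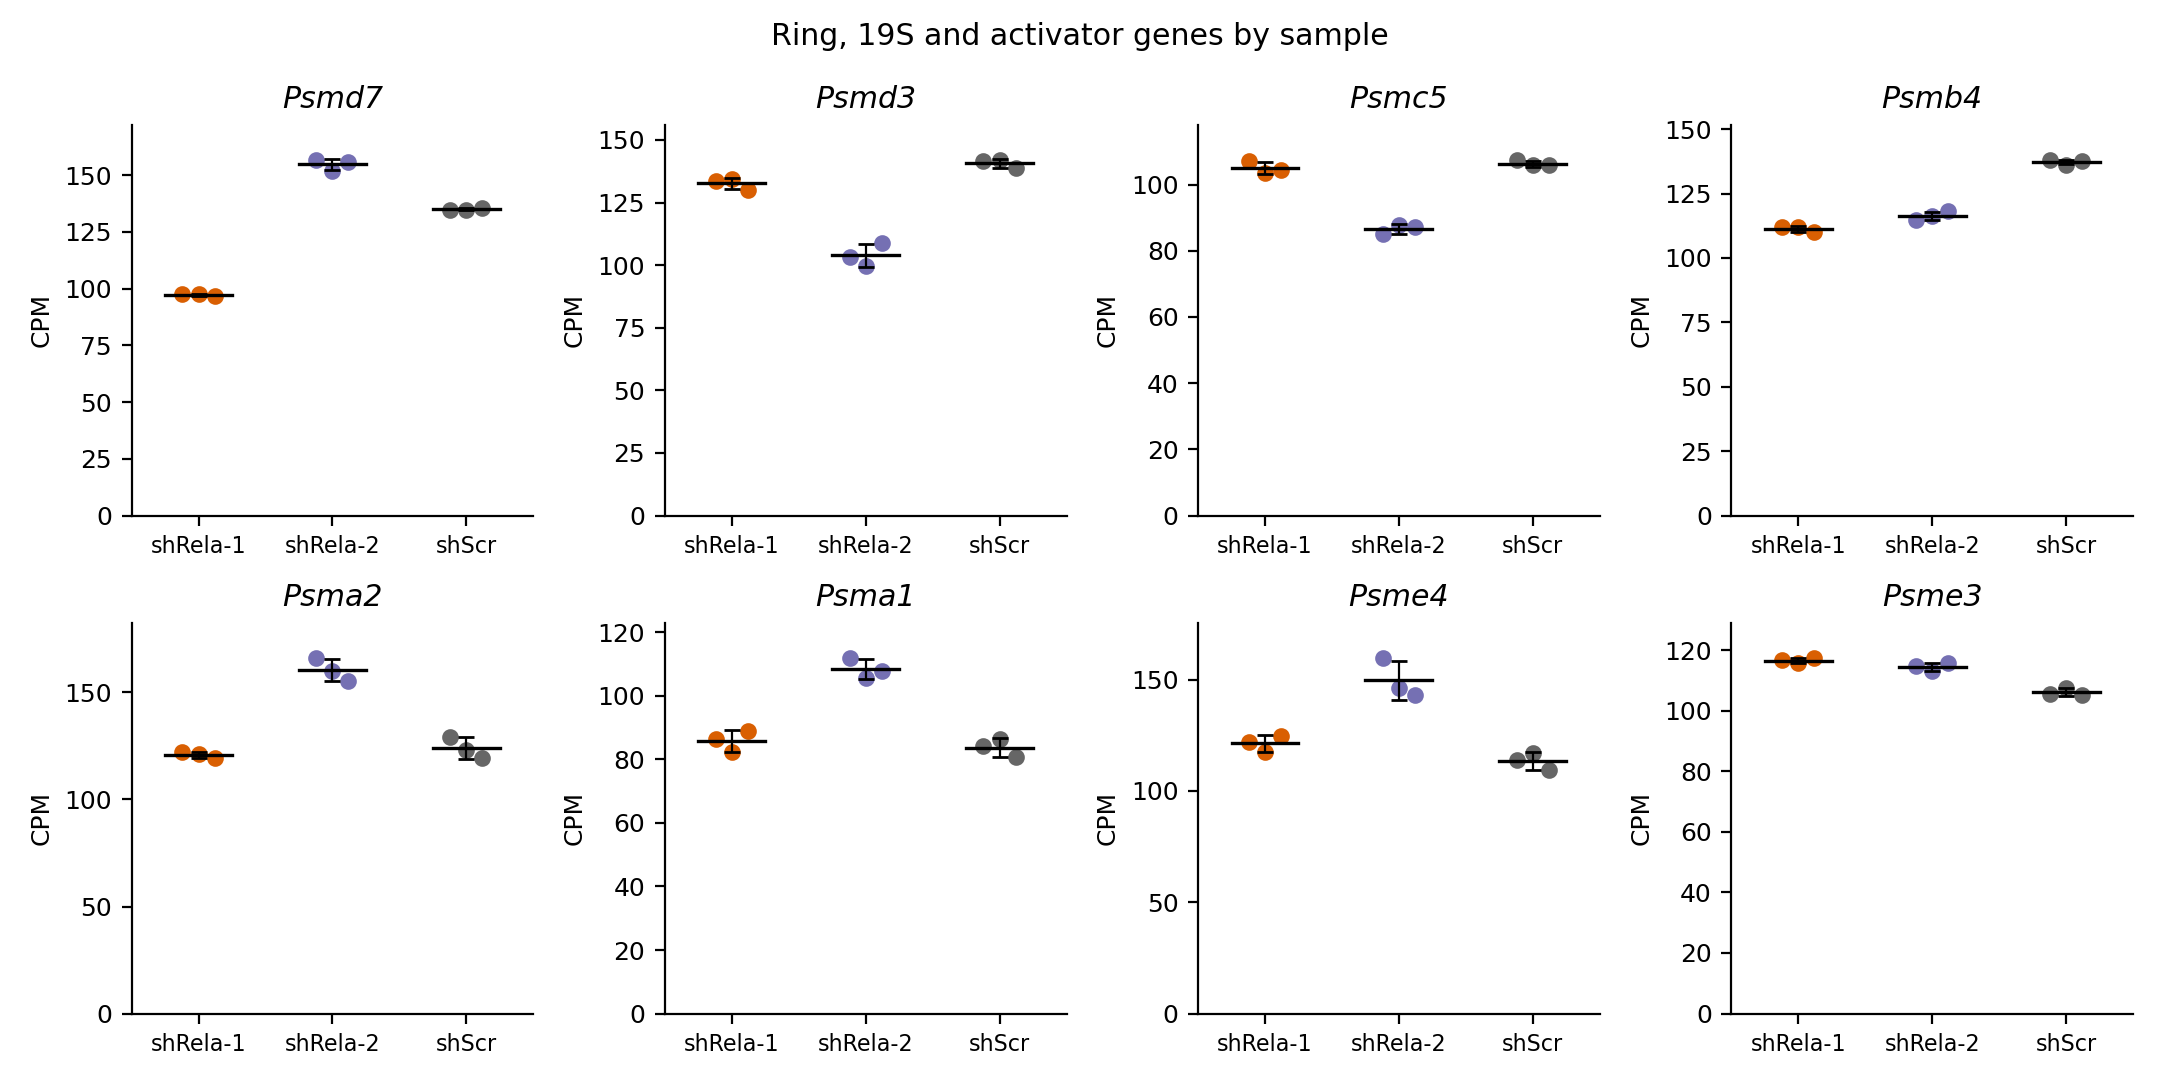
CPM in each sample (points), mean (line) and SD (bars) of Psmd7, Psmd3, Psmc5, Psmb4, Psma2, Psma1, Psme4 and Psme3 in shRela-1, shRela-2 and shScr, each axis from 0. Psmd7 lies below the controls with shRela-1 and above them with shRela-2, and Psmb4 lies below them with both hairpins.

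In the 19S cap, Psmd7 had opposite changes with the 2 hairpins. Psmd7 is a lid subunit and the structural partner of the deubiquitinase Psmd14, on chromosome 8, bases 107580381 to 107588464, minus strand. It was at 97.5, 97.7 and 96.6 CPM with shRela-1, 157, 152 and 156 CPM with shRela-2, and 135, 135 and 136 CPM with shScr. The 3 groups were fully apart, with shRela-1 lowest and shRela-2 highest. The log2 change was -0.47 ± 0.0318 (SE, adjusted p = 3.27e-06) with shRela-1 and 0.20 ± 0.0316 (SE, adjusted p = 0.000944) with shRela-2, and the difference between the hairpins was 0.67 ± 0.0318 (SE, adjusted p = 1.16e-07), all kept without any 1 sample. Psmd14 had the same signs, -0.14 ± 0.0379 (SE, adjusted p = 0.0204) with shRela-1 and 0.14 ± 0.0378 (SE, adjusted p = 0.0174) with shRela-2. Its fall was lost without shRela-1 replicate 1 or 2 or shScr replicate 1 or 2 (adjusted p from 0.0524 to 0.0718), and its rise without shRela-2 replicate 1 or 2 or shScr replicate 2 or 3 (0.0546 to 0.078). The difference of Psmd14 between the hairpins, 0.28 ± 0.0379 (SE, adjusted p = 0.000177), was kept in all 9 such fits.

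Psmd3, a scaffold subunit of the lid on chromosome 11, bases 98682554 to 98695979, plus strand, moved with shRela-2. It was at 134, 134 and 130.0 CPM with shRela-1, 103, 99.5 and 109 CPM with shRela-2, and 142, 142 and 139 CPM with shScr. The shRela-2 samples lay far below, and the shRela-1 samples were below the controls by a small margin. Its log2 change was -0.44 ± 0.04 (SE, adjusted p = 2.67e-05) with shRela-2, -0.09 ± 0.0398 (SE, adjusted p = 0.154) with shRela-1 and -0.35 ± 0.04 (SE, adjusted p = 5.11e-05) between the hairpins. Psmc5, an ATPase of the base, was at 107, 104 and 104 CPM with shRela-1, 85.0, 87.8 and 87.3 CPM with shRela-2, and 107, 106 and 106 CPM with shScr. Only the shRela-2 samples lay outside the range of the other groups. Its change was -0.29 ± 0.0321 (SE, adjusted p = 8.15e-05) with shRela-2, -0.02 ± 0.032 (SE, adjusted p = 0.743) with shRela-1 and -0.28 ± 0.0321 (SE, adjusted p = 6.12e-05) between the hairpins.

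Over the 17 genes of the 19S base and lid, 7 rose and 4 fell with shRela-2, and none rose and 3 fell with shRela-1. Beside these counts, 30.9% of all genes were called with shRela-2 and 24.7% with shRela-1. Among genes with a mean of at least 70 CPM the shares were 51.4% and 40.7%. Before adjustment, at p under 0.05, edgeR gave 0 of the 17 as higher with shRela-1, as did the calls of DESeq2 and limma voom. With the replicate block, Psmc3 and Psmc6 also fell with shRela-1 and Psmd8 rose (adjusted p = 0.00908, 0.0126 and 0.00453), and Psmc6 and Psmd2 rose with shRela-2 (adjusted p = 0.0134 and 0.00684). The log2 changes of Psmc6, an ATPase of the base, without the block were -0.12 ± 0.0416 (SE, adjusted p = 0.063) with shRela-1 and 0.11 ± 0.0416 (SE, adjusted p = 0.0604) with shRela-2. It also passed with shRela-2 by DESeq2 (adjusted p = 0.0437) and with upper quartile scaling (0.0471), and with both hairpins without shRela-1 replicate 3 (0.0326 for shRela-1 and 0.046 for shRela-2). Psmd2 passed with shRela-2 without shScr replicate 1 (0.0405). Those that rose with shRela-2, beside Psmd7 and Psmd14, were Psmd1, Psmd4, Psmd13, Psmc3 and Psmc4, by 0.14 to 0.26 on the log2 scale. Psmd1 and Psmd13 kept the call without any 1 sample. Psmc4 lost it without shScr replicate 2 or 3 (adjusted p = 0.0507 and 0.0539), and Psmc3 without shRela-2 replicate 1 or 2 or shScr replicate 1 or 2 (0.0527 to 0.0929). Psmd4 lost it without any 1 of 7 samples, the exceptions being shRela-2 replicate 3 and shScr replicate 1 (0.057 to 0.171), and with only the groups compared in the fit (0.0758). Psmc1 and Psmd11 also fell with shRela-2 (-0.16 ± 0.034 SE, adjusted p = 0.00436, and -0.16 ± 0.0431 SE, adjusted p = 0.0165). Psmc1, Psmd1, Psmd2 and Psmd11 share 17.6%, 8.36%, 25.6% and 12.5% of their 50-base stretches with other genes. Exons of Psmc3 and Psmd13 overlap Slc39a13 and Sirt3 on the opposite strand. Psmd11 lost the call without shRela-2 replicate 3 or shScr replicate 1 (adjusted p = 0.058 and 0.0595). Psmd12 fell with shRela-1 (-0.18 ± 0.0405 SE, adjusted p = 0.00815).

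Of the 3 chaperones that assemble the base, Psmd10, also called gankyrin, was at 18.1, 16.5 and 15.2 CPM with shRela-1, 19.1, 18.1 and 19.8 CPM with shRela-2, and 21.5, 20.5 and 20.5 CPM with shScr. All samples with a Rela hairpin lay below the controls, and shRela-1 replicates 2 and 3 were lowest. It fell with shRela-1 by 0.33 ± 0.0711 (SE, adjusted p = 0.00726), and its change with shRela-2 was -0.13 ± 0.071 (SE, adjusted p = 0.198). The mean over both hairpins, -0.23 ± 0.061 (SE, adjusted p = 0.0213), did not pass without shScr replicate 1, 2 or 3 (adjusted p = 0.0807, 0.0517 and 0.0587). The difference between the hairpins, 0.20 ± 0.0713 (SE, adjusted p = 0.0507), passed with the replicate block (adjusted p = 0.0115), with limma voom (0.0454), with DESeq2 (0.0435) and without shRela-1 replicate 1 (0.017). Psmd9 was at 29.1, 29.6 and 27.0 CPM with shRela-1, 34.7, 35.4 and 35.7 CPM with shRela-2, and 30.1, 30.6 and 31.1 CPM with shScr, with shRela-2 above and shRela-1 below the controls. It rose with shRela-2 by 0.20 ± 0.0463 (SE, adjusted p = 0.00687), and its change with shRela-1 was -0.10 ± 0.0464 (SE, adjusted p = 0.16), a difference of 0.30 ± 0.0464 (SE, adjusted p = 0.000427). Exons of Psmd9 overlap Gm26745 on the opposite strand. Psmd5 passed in none of the comparisons.

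The activators bind the ends of the 20S core in place of the 19S cap. Psme4, or PA200, which acts on histones among other substrates, was at 122, 117 and 125 CPM with shRela-1, 159.6, 146 and 143 CPM with shRela-2, and 114, 117 and 109 CPM with shScr. The shRela-2 samples stood above all others, and those with shRela-1 were above or level with the highest control. It rose with shRela-2 by 0.40 ± 0.0493 (SE, adjusted p = 0.000188), and with shRela-1 the change was 0.10 ± 0.0492 (SE, adjusted p = 0.192), which passed with the replicate block (adjusted p = 0.0498). The difference between the hairpins was 0.30 ± 0.0492 (SE, adjusted p = 0.000646). Psme3, the nuclear 11S activator PA28 gamma, was at 117, 116 and 117 CPM with shRela-1, 115, 113 and 116 CPM with shRela-2, and 105, 108 and 105 CPM with shScr. All 6 samples with a Rela hairpin were above the 3 controls. The rise was 0.14 ± 0.0316 (SE, adjusted p = 0.0105) for shRela-1 and 0.11 ± 0.0316 (SE, adjusted p = 0.0234) for shRela-2. The rise with shRela-2 did not pass without shRela-2 replicate 1 or 3 or shScr replicate 1 or 3 (adjusted p from 0.0588 to 0.0765).

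Psme1 and Psme2 form the interferon-inducible PA28 activator that works with the immunoproteasome. Psme1 was at 33.7, 34.2 and 30.5 CPM with shRela-1, 36.6, 31.0 and 28.2 CPM with shRela-2, and 38.3, 34.1 and 37.3 CPM with shScr, and Psme2 was at 45.6, 50.7 and 46.0 CPM with shRela-1, 55.2, 46.6 and 46.2 CPM with shRela-2, and 52.3, 52.2 and 52.1 CPM with shScr. For both genes shRela-2 replicate 1 stood above the other shRela-2 samples. The log2 changes of Psme1 were -0.16 ± 0.089 (SE, adjusted p = 0.243) with shRela-1 and -0.20 ± 0.0893 (SE, adjusted p = 0.129) with shRela-2, and those of Psme2 were -0.14 ± 0.0669 (SE, adjusted p = 0.17) and -0.08 ± 0.067 (SE, adjusted p = 0.405). With the replicate block Psme1 fell with both hairpins (adjusted p = 0.0345 and 0.00704) and Psme2 with shRela-1 (adjusted p = 0.042). Without shRela-2 replicate 1, Psme1 fell with shRela-2 (adjusted p = 0.0126) and Psme2 with both (0.049 with shRela-1 and 0.0324 with shRela-2). Psme2 shares 54.9% of its 50-base stretches with other genes and Psme2b shares 69.3%, so reads can be split between them. Psme2b was at 1.87, 2.39 and 2.35 CPM with shRela-1, 1.12, 1.83 and 1.44 CPM with shRela-2, and 2.01, 1.79 and 1.75 CPM with shScr. It was lower with shRela-2 than with shRela-1 without overlap (-0.58 ± 0.19 SE, adjusted p = 0.0323), a call lost without replicate 2 or 3 of shRela-1 or replicate 1 or 3 of shRela-2 (adjusted p from 0.0819 to 0.105) and with only these groups in the fit (0.055). Psmc3ip stayed between 1.32 and 2.02 CPM and passed in none of the comparisons.

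The messenger RNA of 9 tested members holds the 7-base run GAAGCTA, and that of 3 holds AGGTGTA, both of which also occur in the coding sequence of Rela. The runs were chosen with earlier results of these data known, in which genes with GAAGCTA in the 3′ UTR were lower with shRela-2 and those with AGGTGTA with shRela-1, so the counts describe the members and are not independent support. The sites of the members that fell with shRela-2 and of Rela are shown with the run in capitals, 5′ to 3′, from GENCODE M21 transcripts (GRCm38).
Psmb6 (3′ UTR): ataccgacgcaGAAGCTAataaacagtttg
Psmc5 (coding sequence): atgtccatcaaGAAGCTAtggaagtgaggc
Psmc1 (coding sequence): ctgaaattactGAAGCTAgagagaataaaa
Psmb7 (coding sequence): gaagaagccaaGAAGCTAgtgagtgaggct
Rela (coding sequence): tggagtaccctGAAGCTAtaactcgcctgg

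Of the 9 members with GAAGCTA anywhere in the messenger RNA, 4 fell with shRela-2 and none rose, and of the 35 without it 3 fell and 17 rose. None of the 9 was higher with shRela-2 at an unadjusted p under 0.05 by edgeR, or by the calls of DESeq2 and limma voom. Over all genes tested with an annotated transcript, 30.7% of 3298 with the run and 11.7% of 10619 without it fell with shRela-2, and 9.37% and 18.2% rose. With shRela-1, 3 of the 9 and 5 of the 35 fell, and over all genes 13.5% and 13.0%. The other holders were Psma3, Psma4, Psma8, Psmd2 and Psmd12, whose log2 changes with shRela-2 were 0.04, -0.03, -0.43, 0.09 and -0.08. In the 3′ UTR alone the run was in Psmb6, Psma3 and Psmd12. AGGTGTA was in the messenger RNA of Psmb6, Psmd12 and Psmc3ip, and Psmb6 and Psmd12 are among the 8 members that fell with shRela-1. Over all genes, 29.0% of 2174 with AGGTGTA and 10.2% of 11743 without it fell with shRela-1. Neither run is in an annotated messenger RNA of Psmb4, Psmd3 or Psmd7. The part of these runs in the changes was not tested.

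**Figure D5:**
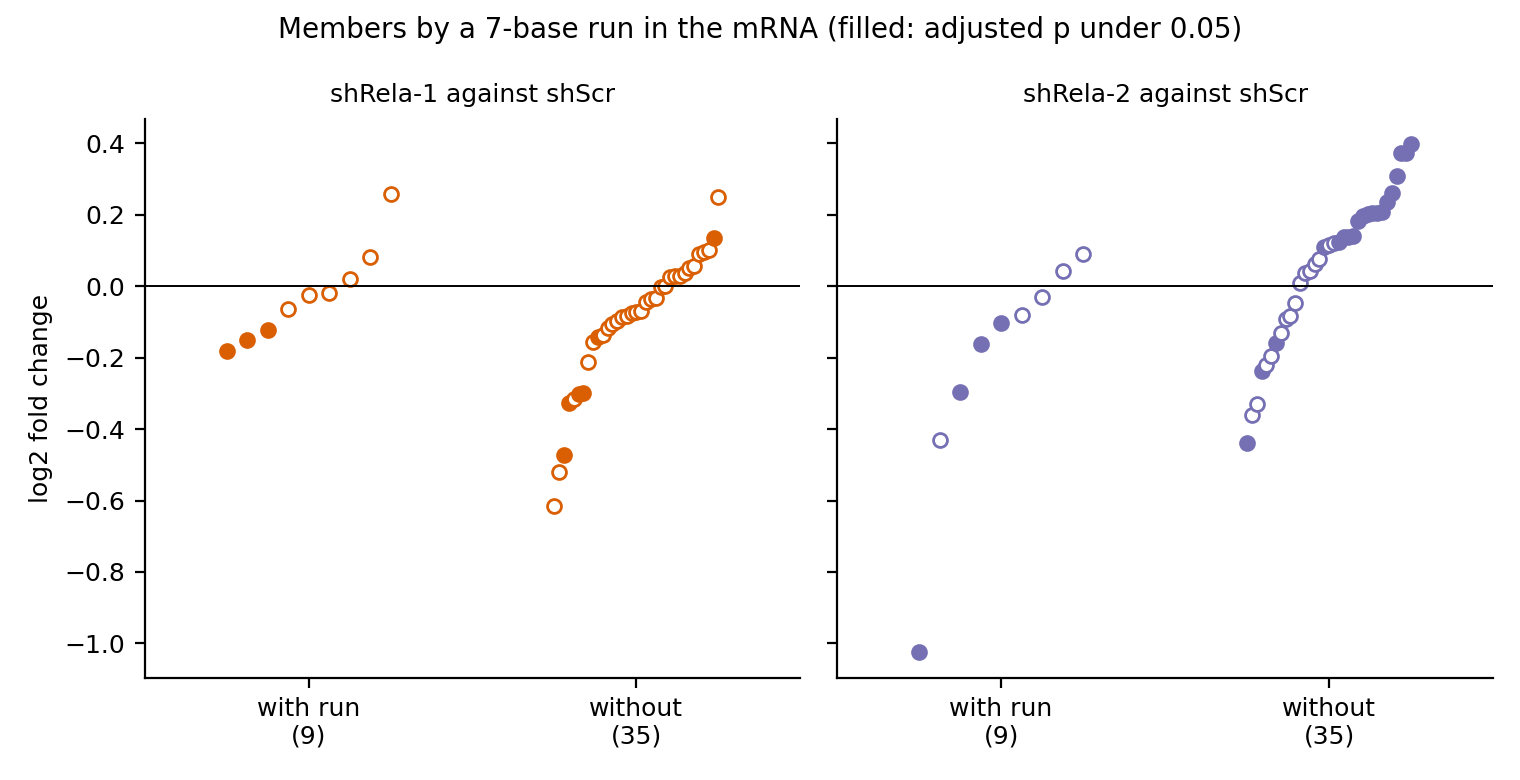
Log2 fold change of the 44 tested members with shRela-1 (left) and shRela-2 (right) against shScr, split by whether an annotated messenger RNA holds GAAGCTA (9 with, 35 without); filled points passed the adjusted p of 0.05. With shRela-2 the filled points among the 9 all lie below 0.

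Genes that build, control or serve the proteasome were taken from 6 lists chosen with earlier results of these data known. The counts of each list stand beside shares over all genes of 12.3% risen and 12.4% fallen with shRela-1. With shRela-2 these shares were 15.4% and 15.4%. Under the replicate block 39.3% of all genes were called with shRela-1 and 44.4% with shRela-2. Among 8 genes of assembly factors and the inhibitor Psmf1, edgeR called none as risen and 1 as fallen with shRela-1 (3 with the replicate block), and 2 as risen and none as fallen with shRela-2 (1 with the block). At an unadjusted p under 0.05, 0 were higher with shRela-1 and 1 was lower with shRela-2, and DESeq2 and limma voom called the same numbers. Pomp, the maturation factor of the 20S core, was at 101, 100.2 and 104 CPM with shRela-1, 118, 118 and 114 CPM with shRela-2, and 104, 100.2 and 99.2 CPM with shScr, and its change was 0.20 ± 0.0354 (SE, adjusted p = 0.00154) with shRela-2 and 0.01 ± 0.0354 (SE, adjusted p = 0.869) with shRela-1. Psmf1 changed by 0.20 ± 0.0462 (SE, adjusted p = 0.00771) with shRela-2 and 0.01 ± 0.0462 (SE, adjusted p = 0.912) with shRela-1. The chaperone genes Psmg1 and Psmg4 had -0.19 ± 0.0689 (SE, adjusted p = 0.0549) and -0.12 ± 0.151 (SE, adjusted p = 0.613) with shRela-2, and -0.16 ± 0.0687 (SE, adjusted p = 0.111) and -0.35 ± 0.151 (SE, adjusted p = 0.125) with shRela-1. With the block Psmg1 fell with both (adjusted p = 0.0359 for shRela-1 and 0.0125 for shRela-2), and Psmg4 with shRela-1 (0.0304).

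Of 15 other subunits, associated proteins and shuttles, 2 rose and 2 fell with shRela-1 (5 and 3 with the block), and 5 rose and 4 fell with shRela-2. Zfand2a, a stress-induced proteasome regulator, rose with both hairpins (0.75 ± 0.0386 SE, adjusted p = 8.91e-07, with shRela-2 and 0.27 ± 0.0386 SE, adjusted p = 0.000575, with shRela-1), as did Ube3c, a ubiquitin ligase of the proteasome (0.15 ± 0.0308 SE, adjusted p = 0.00349, and 0.39 ± 0.0308 SE, adjusted p = 9.49e-06). The shuttle Rad23b fell with shRela-2 (-0.43 ± 0.0389 SE, adjusted p = 2.49e-05) and changed by 0.08 ± 0.0387 (SE, adjusted p = 0.171) with shRela-1 (adjusted p = 0.039 with the block). In the control of proteasome genes by NRF1, 3 of 11 rose and 5 fell with shRela-1, and 3 rose and 2 fell with shRela-2. Nfe2l2, which encodes the related factor NRF2, fell with shRela-2 (-0.46 ± 0.0433 SE, adjusted p = 3.1e-05). Its change with shRela-1 was 0.16 ± 0.043 (SE, adjusted p = 0.0192), which did not pass without shRela-1 replicate 1 or shScr replicate 2 or 3 (adjusted p from 0.0676 to 0.0735).

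Mafk, a small partner of NRF1 and NRF2, rose by 0.38 ± 0.0799 (SE, adjusted p = 0.00451) with shRela-2 and 0.36 ± 0.0798 (SE, adjusted p = 0.00766) with shRela-1. Maff had -0.24 ± 0.0673 (SE, adjusted p = 0.0218) and -0.23 ± 0.0671 (SE, adjusted p = 0.0316). Its calls were lost without shRela-2 replicate 1 or 3 or shScr replicate 1 or 2 with shRela-2 (adjusted p from 0.0538 to 0.0748), and without shRela-1 replicate 2 or 3 or shScr replicate 1 or 2 with shRela-1 (0.0786 to 0.114). Mafg fell with shRela-1 (-0.31 ± 0.0578 SE, adjusted p = 0.00286) and had -0.06 ± 0.0577 (SE, adjusted p = 0.481) with shRela-2. Nfe2l1 itself was at 426, 444 and 427 CPM with shRela-1, 513, 525 and 508 CPM with shRela-2, and 459, 497 and 495 CPM with shScr. All shRela-2 samples lay above all others, and all shRela-1 samples lay below the controls. It fell with shRela-1 (-0.16 ± 0.041 SE, adjusted p = 0.0154), a call lost without shRela-1 replicate 3 or shScr replicate 2 or 3 (adjusted p from 0.0538 to 0.0646). Its change with shRela-2 was 0.09 ± 0.041 (SE, adjusted p = 0.126), which passed with the replicate block (adjusted p = 0.00887), and the difference between the hairpins was 0.25 ± 0.041 (SE, adjusted p = 0.000627). With shRela-1, Mafk and Mafg thus moved in opposite directions.

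In interferon signalling, which acts upstream of the immunoproteasome, none of 15 rose and 4 fell with shRela-1, and 1 rose and 2 fell with shRela-2 (2 and 3 with the block). With shRela-1, 0 of the 15 were higher at an unadjusted p under 0.05 by edgeR, and DESeq2 and limma voom called 0. Irf1, the transcription factor that interferon gamma uses to induce Psmb9, was at 6.07, 6.49 and 5.54 CPM with shRela-1, 13.6, 11.6 and 10.6 CPM with shRela-2, and 13.9, 14.2 and 12.1 CPM with shScr. Its shRela-1 samples lay far below the others, and shRela-2 overlapped the controls. It fell with shRela-1 (-1.15 ± 0.11 SE, adjusted p = 3.86e-05), its change with shRela-2 was -0.17 ± 0.106 (SE, adjusted p = 0.276), and the difference between the hairpins was 0.98 ± 0.11 (SE, adjusted p = 4.54e-05). Ifngr1, the receptor chain that binds interferon gamma, was at 49.4, 44.9 and 50.1 CPM with shRela-1, 21.7, 21.9 and 21.3 CPM with shRela-2, and 45.0, 44.7 and 45.3 CPM with shScr. All shRela-2 samples lay below all others, and shRela-1 overlapped the controls. It fell with shRela-2 (-1.05 ± 0.047 SE, adjusted p = 3.06e-07), and its change with shRela-1 was 0.10 ± 0.0456 (SE, adjusted p = 0.154), which passed without shRela-1 replicate 2 (adjusted p = 0.0361). Jak1, a kinase of the receptor, fell with shRela-1 (-0.37 ± 0.0348 SE, adjusted p = 3.29e-05) and had 0.06 ± 0.0347 (SE, adjusted p = 0.265) with shRela-2. Ifngr2 fell with shRela-1 (-0.19 ± 0.0331 SE, adjusted p = 0.00184). With shRela-2 its change was -0.10 ± 0.0331 (SE, adjusted p = 0.0464), a call lost without any 1 of the 9 samples (adjusted p from 0.0507 to 0.166).

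Among 14 genes of peptide transport and trimming, 2 rose and 5 fell with shRela-1 (4 and 5 with the block), and 3 rose and 2 fell with shRela-2 (5 and 2). Tapbpl, a peptide editor of MHC class I, fell with shRela-1 (-0.45 ± 0.0886 SE, adjusted p = 0.00438) and had 0.04 ± 0.0879 (SE, adjusted p = 0.772) with shRela-2. The peptidase Tpp2 had 0.20 ± 0.039 (SE, adjusted p = 0.00264) with shRela-2 and 0.07 ± 0.039 (SE, adjusted p = 0.203) with shRela-1, and Thop1 had -0.23 ± 0.0486 (SE, adjusted p = 0.00469) and -0.17 ± 0.0485 (SE, adjusted p = 0.0244). The call of Thop1 with shRela-1 was lost without shRela-1 replicate 2 or 3 or shScr replicate 2 or 3 (adjusted p from 0.0622 to 0.0845). The chaperone Calr had 0.14 ± 0.0599 (SE, adjusted p = 0.115) with shRela-2 and 0.15 ± 0.0599 (SE, adjusted p = 0.0987) with shRela-1, and rose with both under the replicate block (adjusted p = 0.000787 and 0.000433) and without shScr replicate 1 (0.0388 and 0.0363).

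Of 11 genes of ubiquitin and the p97 segregase, 1 rose and 4 fell with shRela-1 (2 and 4 with the block), and 5 rose and 2 fell with shRela-2 (6 and 3). Faf2, a membrane adaptor of p97, fell with shRela-1 (-0.65 ± 0.0356 SE, adjusted p = 7.56e-07). With shRela-2 it had 0.13 ± 0.0353 (SE, adjusted p = 0.0169), a call lost without shScr replicate 2 (adjusted p = 0.0792). Uba6, a ubiquitin-activating enzyme, fell with shRela-2 (-0.82 ± 0.0836 SE, adjusted p = 5.4e-05) and had 0.11 ± 0.0824 (SE, adjusted p = 0.398) with shRela-1. Ufd1l, a p97 cofactor, had 0.21 ± 0.0382 (SE, adjusted p = 0.00231) and 0.06 ± 0.0382 (SE, adjusted p = 0.273), in the same order, and the cofactor Nsfl1c had -0.17 ± 0.0394 (SE, adjusted p = 0.00737) and -0.14 ± 0.0393 (SE, adjusted p = 0.0287). The second call of Nsfl1c was lost without any 1 shRela-1 sample or shScr replicate 1 or 3 (adjusted p from 0.0584 to 0.109).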

How the data were processed

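RNA from 9 samples was purified on columns and made into TruSeq RNA v2 libraries, per the labels' protocols, a kit that does not mark strand. The deposited table holds raw counts, with genes in rows by symbol. The submitters' processing notes name the build mm10 and featureCounts 1.4.6, Subread, Bowtie2 2.2.6 and TopHat2 2.0.14, without settings. Values of 1 were fewer than values of 2 (2764 against 7984). If mates of a pair were counted apart, which is not stated, independent fragments are fewer than the counts.

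The test was that of edgeR 4.0.16 (R 4.3.3), with filterByExpr, TMM scaling (factors 0.975 to 1.02), 1 mean per group over all 9 samples, glmQLFit and glmQLFTest (two-sided), and Benjamini-Hochberg adjustment over 15369 genes in each of 4 contrasts. CPM were computed from TMM-scaled totals, and levels per kilobase from the length of the principal GENCODE M21 transcript. Alternatives were DESeq2 1.42.0 size factors and its Wald test, upper quartile scaling, no filter, limma 3.58.1 voom, fits of only the groups compared, a replicate block, and leaving out each sample. The titles give each group the same replicate numbers. Deviations of same-numbered samples from their group means correlated at 0.189 to 0.415 in all 9 pairs, and at -0.306 to 0.046 in the 18 other pairs between groups, so the numbers pair the samples. Log2 ratios used counts plus 0.5. Only the edgeR fit was tested on simulated counts, with changes put into shRela-1 and no pairing of samples.

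Named with values in every sample were Psmb5 to Psmb10, Psme1 to Psme4 and, in each contrast, up to 4 called members in each direction with the largest change and no overlap. Each list contributed at most 4 genes, ranked by p for the mean of both hairpins, and genes that share exons with a member could be named. Genes named outside these rules were chosen after their values were seen. The members, lists and rules were chosen with earlier results of these data known. The list genes Paaf1 and Adgre1 were not used here, and 1 list gene the rule named is not reported.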

Additional observations from a re-analysis of the deposited data

Results flagged for a closer look

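For 14 of the proteasome genes described with values in every sample, the effects of the hairpins differed from each other in a direct test (edgeR's quasi-likelihood test, adjusted p under 0.05). Some of these 14 were named because they passed this same test, so their number is not independent support. Over all 44 tested members 21 were higher and 7 lower with shRela-2 than with shRela-1, Psmd14 (0.28) among them. That is 63.6% called, against 39.9% of all genes. At a mean of at least 70 CPM the shares were 73.5% of members and 58.7% of genes. The log2 fold change of shRela-2 over shRela-1 was positive for Psmd7 (0.67), Psmb8 (0.64), Psma2 (0.41), Psma1 (0.34), Psmd9 (0.30), Psme4 (0.30), Psmb5 (0.25), Psmb2 (0.22) and Psmb1 (0.15). It was negative for Psmb6 (-0.87), Psme2b (-0.58), Psmd3 (-0.35), Psmc5 (-0.28) and Psmb7 (-0.18). The calls of Psmb8 and Psme2b were each lost without some single samples (Psmb8 without 6 and Psme2b without 4 of the 9), and the other 12 were kept without any 1 sample.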

How the results depend on the processing

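Of the 79 calls of members over the 4 contrasts, 78, 77 and 76 were shared with DESeq2 size factors, upper quartile scaling and no filter, 79 with the DESeq2 Wald test, 78 with limma voom and 75 with only the groups compared. No called change turned its direction under these alternatives or without a sample. With the replicate block all 79 calls were shared and 23 were added, which moved the members that rose with shRela-1 to 5, against 1 without the block, and those that fell to 14, against 8. Calls over all genes with shRela-1 went up as well, to 3130 risen and 2904 fallen with the block, against 1887 and 1912 without it. Without each sample in turn, 1 to 2 members rose with shRela-1 (2 without shScr replicate 1), and 66 to 71 of the 79 calls were shared. Psmb8, Psmb9 and Psmb10 have fewer counts and wider intervals than Psmb5, Psmb6 and Psmb7.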
